A study of Mus musculus with 6 samples.

Results

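Cell cycle checkpoint and growth arrest genes were compared between mouse stem cell constructs under intermittent compressive force (ICF) and unloaded constructs. The group comprised 10 genes: the cyclin G genes Ccng1 and Ccng2, the growth arrest and DNA damage genes Gadd45a, Gadd45b and Gadd45g, Btg2, Rprm, Sfn, and the polo-like kinase genes Plk2 and Plk3. They were chosen by symbol, for their place in checkpoint control and with earlier results of these data known. Each symbol was matched to its Ensembl identifier, which found all 10 among the 50686 identifiers counted. All 10 were counted well enough to be among the 16729 genes tested.

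The cells were induced pluripotent stem cells (iPSCs) reprogrammed from mouse gingival fibroblasts, expanded on SNL feeder cells that selective trypsinization removed, and formed into embryoid bodies with retinoic acid. The ICF group (3 samples) received 1.5 g per square centimetre at 0.23 Hz for 24 h in serum-free medium on gelatin-coated plates, and the control group (3 samples) was kept without load for 24 h. Both groups therefore shared the reprogramming and the retinoic acid. The methods state the serum-free medium for the ICF treatment and do not name the medium of the unloaded control. The labels number the samples of each group as donors 1 to 3, called replicates here, while the methods speak of independent experiments, so the p-values measure only the spread between these samples, which may be technical. No strain, sex or age of the source animals is given in the sources used here.

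Checkpoint genes hold dividing cells back when DNA is damaged, nutrients fall or oxygen is short. The transcription factor p53 is a known activator of Ccng1, Btg2, Plk2, Plk3, Gadd45a, Sfn and Rprm, whereas Ccng2 is known as a target of FoxO factors, which act when growth factor signalling is low, and as a gene that rises in hypoxia. The products act at different points: cyclin G proteins bind the PP2A phosphatase, Gadd45 proteins bind PCNA and the G2/M kinase Cdk1, Btg2 recruits the CCR4-NOT complex that removes poly(A) tails, and Sfn and Rprm hold back cyclin B with Cdk1.

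Between 28711166 and 34194413 reads per library were counted on genes. The library of ICF replicate 3 stood apart: 89.0% of its counts above 0 were multiples of 4, against 20.3% to 21.5% in the other 5 libraries, and it had a count for 20802 genes, against 24340 to 24889. For the checkpoint genes, 9 of the 10 counts in that library were multiples of 4, the exception being Ccng1. Replicate 3 of both groups also had more reads outside genes, 6.24% in the control and 6.04% with ICF, against 4.09% to 4.52% in the rest. Summed over 8 pluripotency markers, the level was 3284 to 3920 CPM in the control and 2951 to 3292 CPM with ICF, where CPM is the count scaled to library size by TMM and expressed per 1000000 reads, so pluripotency markers were present in every library.

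The promoter windows of the called genes are printed to show what lies directly upstream of their starts, since the genes are known as targets of different DNA-binding factors. They are from RefSeq on GRCm38.p6, read 5′ to 3′ on the gene's strand, and end at the start or at the first base that GENCODE assigns to an exon. In Ccng1 (chr11:40755312-40755536, minus strand) the 20 adjoining capitals mark a pair of p53 decamers and the later capitals GCGTG. In Btg2 (chr1:134079156-134079405, minus strand) capitals mark CACGC, the reverse complement of GCGTG. In Plk2 (chr13:110394794-110395043, plus strand) they mark CACGT, the reverse complement of ACGTG, and then CACGC. In Gadd45b (chr10:80929841-80930072, plus strand) they mark CACGC at both ends and, between them, CACGTG, which holds ACGTG on both strands.
Ccng1: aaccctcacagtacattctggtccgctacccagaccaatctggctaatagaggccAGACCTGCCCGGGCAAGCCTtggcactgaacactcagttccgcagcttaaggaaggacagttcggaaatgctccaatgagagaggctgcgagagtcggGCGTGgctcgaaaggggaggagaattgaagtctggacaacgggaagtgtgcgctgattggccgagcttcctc
Btg2: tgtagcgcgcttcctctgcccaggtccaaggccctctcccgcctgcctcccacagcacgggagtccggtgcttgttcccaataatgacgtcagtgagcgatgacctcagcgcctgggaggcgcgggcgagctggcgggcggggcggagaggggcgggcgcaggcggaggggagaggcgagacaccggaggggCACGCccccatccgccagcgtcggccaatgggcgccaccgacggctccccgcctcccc
Plk2: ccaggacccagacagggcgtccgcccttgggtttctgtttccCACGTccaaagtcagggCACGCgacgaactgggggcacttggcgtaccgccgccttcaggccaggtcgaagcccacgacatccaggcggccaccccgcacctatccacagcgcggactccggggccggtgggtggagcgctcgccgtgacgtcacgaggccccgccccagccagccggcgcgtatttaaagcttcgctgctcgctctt
Gadd45b: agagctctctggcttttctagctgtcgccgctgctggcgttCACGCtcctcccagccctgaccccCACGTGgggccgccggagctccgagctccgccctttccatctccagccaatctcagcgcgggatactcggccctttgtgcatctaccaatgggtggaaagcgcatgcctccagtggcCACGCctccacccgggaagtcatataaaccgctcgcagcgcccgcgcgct

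The cores ACGTG and GCGTG (both strands) are letters that hypoxia-inducible factors can bind, TGTTTAC (both strands) is a FoxO site, and the p53 decamer is the unit that pairs of p53 subunits bind. In the 250 bases before the start, an exact p53 decamer was found in 2 of the 10 genes, 185 bases before the start of Ccng1 and 40 bases before that of Gadd45a, and in 7.13% of 32851 promoters. Only the Ccng1 window held 2 decamers next to each other, 195 and 185 bases before the start, with 1 letter off the pattern in the first, and 0.898% of all promoters held such a pair within 13 bases. This search for pairs was added after the values of the genes had been seen. The core ACGTG was found in 3 of the 10 windows (Gadd45b, Gadd45g and Plk2) and in 16.6% of all promoters, and GCGTG in 6 of the 10 and in 28.2%. The window of Ccng2 held GCGTG 49 bases before the start and no ACGTG, and its letters are not printed because all 250 bases fall in exons of Ccng2 in the GENCODE annotation. TGTTTAC was found in 0 of the 10 windows and in 3.17% of all promoters. A match is a description of letters, and a factor can act from outside these windows.

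With ICF, 3 of the 10 genes rose (Ccng1, Btg2 and Plk2) and 2 fell (Ccng2 and Gadd45b), by edgeR's quasi-likelihood test with Benjamini-Hochberg adjustment over all 16729 genes. Over all genes tested, 3.47% were called higher and 4.38% lower. By quantitative PCR the paper reports higher Ccng1 mRNA with ICF, which a TGF-β receptor inhibitor did not significantly change. From the sequencing it lists Ccng1, Btg2 and Plk2 among its top upregulated genes and Ccng2 among its top downregulated ones. The shares are therefore set side by side as a description. The median log2 fold change of the 10 genes was 0.26, against 0.0026 over all genes. The 3 control and 3 ICF values did not overlap for 7 of the 10 genes, and for 31.4% of all genes. With a block for the replicate number, edgeR called 9 of the 10 (5 higher and 4 lower), against 29.9% of all genes. In bulk samples, fewer cells of a type and less RNA per cell cannot be told apart.

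**Figure D1:**
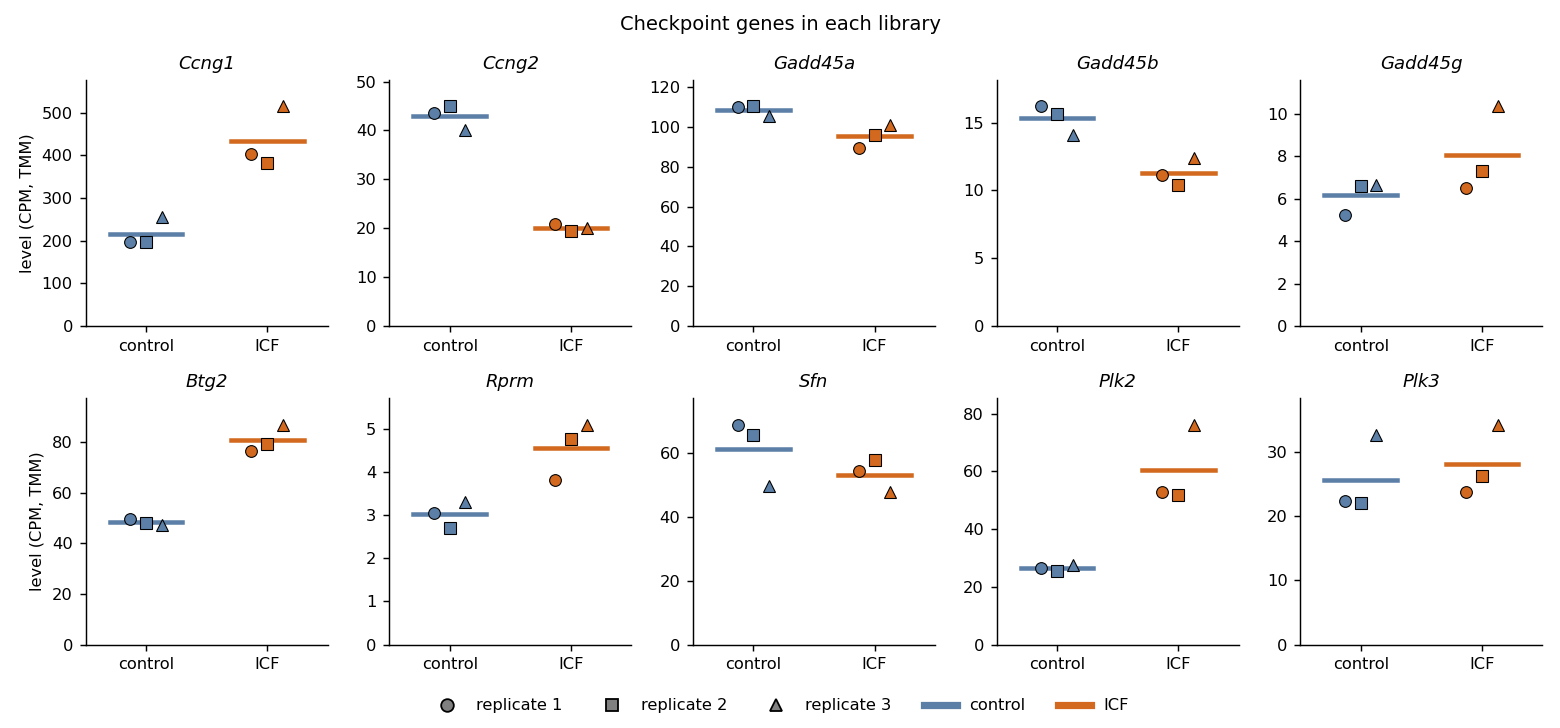
Level of each checkpoint gene in TMM-normalized CPM (vertical axes from 0) in the 3 control and 3 ICF libraries. Points are libraries, with the symbol giving the replicate, and horizontal lines are group means. The groups are apart for Ccng1, Ccng2, Gadd45a, Gadd45b, Btg2, Rprm and Plk2 and overlap for Gadd45g, Sfn and Plk3.

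Ccng1 (ENSMUSG00000020326, GRCm38 chr11:40748552-40755311, minus strand) encodes cyclin G1, which with PP2A acts on Mdm2, the ligase that degrades p53. Its level, in TMM-normalized CPM as for all levels below unless said otherwise, was 196, 197 and 256 in control replicates 1 to 3 and 402, 383 and 515 in ICF replicates 1 to 3. Replicate 3 was the highest of each group, and the lowest ICF library lay well above the highest control library. The mean rose from 217 ± 34.6 to 433 ± 71.4 CPM (SD, n = 3), a 2.00-fold rise (log2 fold change 1.00, SE 0.18, edgeR adjusted p = 0.00433). The log2 differences within the same-numbered pairs were 1.04, 0.96 and 1.01. Without ICF replicate 3 the log2 fold change was 0.87 (edgeR adjusted p = 0.00315), and the call held with each of the 6 libraries left out in turn, at 0.87 to 1.14.

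Ccng2 (ENSMUSG00000029385, chr5:93267257-93276231, plus strand) encodes cyclin G2, a cyclin that slows division rather than driving it. Its level was 43.7, 45.0 and 40.2 CPM in the control and 20.8, 19.4 and 20.0 CPM with ICF. No library lay between the groups, and control replicate 3 was the lowest control library. The mean fell from 42.9 ± 2.48 to 20.1 ± 0.72 CPM (SD, n = 3), which was 2.14-fold lower with ICF (log2 fold change -1.10, SE 0.057, edgeR adjusted p = 0.000308). By p-value Ccng2 ranked 9 among the 16729 genes, the highest place of the 10 genes, and Ccng1 ranked 190. The call held with each library left out, with log2 fold changes of -1.14 to -1.06.

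The cyclin G genes thus moved in opposite directions by amounts of similar size. The log2 ratio of Ccng1 to Ccng2 counts within a library does not depend on normalization, and its absolute height also reflects their lengths. The control libraries gave 2.16, 2.13 and 2.67, and the ICF libraries gave 4.27, 4.30 and 4.68. The difference was 2.10 (SE 0.22), a 4.27-fold shift, and it was 2.11, 2.17 and 2.01 in the same-numbered pairs. The exact two-sided permutation test gave p = 0.1 (0.1 adjusted over the 5 ratios compared here), the smallest value 3 samples against 3 allow, and the exact sign-flip test over the 3 pairs gave 0.25, also its smallest. With any 1 library left out the difference was 1.96 to 2.27.

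Per kilobase of exon, Ccng1 made up 88.5% ± 2.03 (SD, n = 3) of the summed cyclin G level in the control and 97.1% ± 0.43 with ICF. The share of Ccng2 went from 11.5% to 2.94%. The sum itself was 69.5 ± 9.41 CPM per kilobase in the control and 127 ± 20.3 with ICF. Cyclin G mRNA was mostly Ccng1 in every library, and the control library with the highest share, replicate 3 at 90.8%, was below the lowest ICF library at 96.8%.

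**Figure D2:**
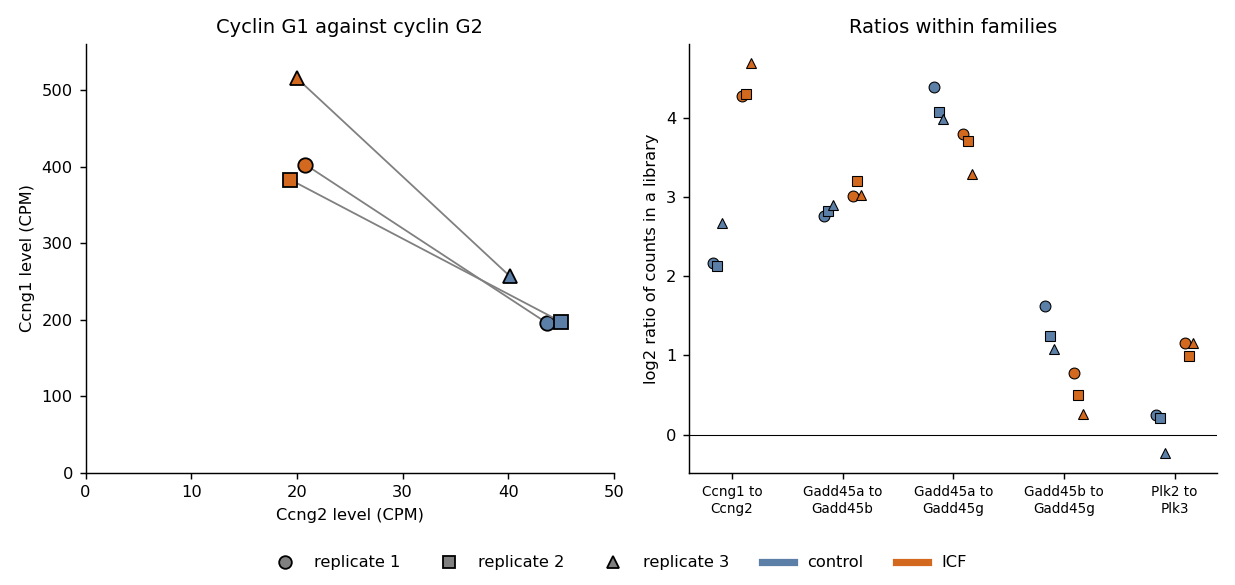
Left, level of Ccng1 against Ccng2 (CPM) in each library, with lines joining the control and ICF libraries of the same replicate number. Right, log2 ratios of counts between family members in each library. All 3 lines run up and to the left, and the Ccng1 to Ccng2 ratio is 2.13 to 2.67 in the control and 4.27 to 4.68 with ICF.

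Btg2 (ENSMUSG00000020423, chr1:134075170-134079120, minus strand) encodes an antiproliferative protein that brings CCR4-NOT to mRNAs. Its level was 49.5, 48.3 and 47.3 CPM in the control and 76.6, 79.2 and 87.0 CPM with ICF. The control libraries were within a narrow range and all 3 ICF libraries were above it. The mean rose from 48.4 ± 1.07 to 80.9 ± 5.42 CPM (SD, n = 3; log2 fold change 0.74, SE 0.058, edgeR adjusted p = 0.000812). Btg2 ranked 43 by p-value, second among the 10 genes, and without ICF replicate 3 the log2 fold change was 0.69 (edgeR adjusted p = 0.000536). Of 11 subunits and partners of CCR4-NOT, 0 were called by edgeR or DESeq2, 1 had an unadjusted p under 0.05, and 2 were called higher with the block. The one with the largest difference, Cnot11, had 71.4 ± 4.22 CPM in the control and 82.3 ± 4.10 with ICF (SD, n = 3, edgeR adjusted p = 0.106).

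Plk2 (ENSMUSG00000021701, chr13:110395046-110400844, plus strand) encodes a stress-induced kinase that also acts in centriole duplication. Its level was 26.4, 25.5 and 27.7 CPM in the control and 52.8, 51.9 and 76.2 CPM with ICF. ICF replicate 3 was far above the other ICF libraries, which themselves lay well above the control. The mean rose 2.27-fold, from 26.6 ± 1.09 to 60.3 ± 13.8 CPM (SD, n = 3; log2 fold change 1.18, SE 0.18, edgeR adjusted p = 0.00252), the largest rise of the 10 genes. Without ICF replicate 3 the log2 fold change was 0.99, with an edgeR adjusted p of 0.00021.

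Plk3 (ENSMUSG00000028680, chr4:117128655-117133963, minus strand) encodes the related kinase that p53 also activates. Its level was 22.3, 22.1 and 32.6 CPM in the control and 23.7, 26.2 and 34.2 CPM with ICF. Replicate 3 was the highest library in both groups, by more than the groups differed, and the groups overlapped. The means were 25.7 ± 6.03 and 28.0 ± 5.52 CPM (SD, n = 3; log2 fold change 0.13, SE 0.24, edgeR adjusted p = 0.704), and without ICF replicate 3 the log2 fold change was -0.034. Plk3 was also not called with the block (edgeR adjusted p = 0.171). It shares 3.32% of its exon bases with Tctex1d4 on the opposite strand.

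The log2 ratio of Plk2 to Plk3 was 0.25, 0.21 and -0.24 in the control libraries and 1.16, 0.99 and 1.15 in the ICF libraries. The difference was 1.03 (SE 0.16), a 2.04-fold shift, with an exact two-sided permutation p of 0.1, the smallest possible. Per kilobase of exon, Plk2 made up 37.3% ± 4.29 of the summed level of both kinases in the control and 54.7% ± 1.66 with ICF (SD, n = 3). With the longest transcript as the length (2800 bases for Plk2 in place of 4491), a setting added after the data were seen, these shares were 48.6% ± 4.64 and 65.8% ± 1.52. Plk2 was above Plk3 in every ICF library by either length, while in the control the order depended on the length: Plk3 was above Plk2 in 3 of 3 libraries per exon length and in replicate 3 alone per transcript length.

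Gadd45a (ENSMUSG00000036390, chr6:67035096-67037457, minus strand), the p53-linked member of its family, had 110, 111 and 106 CPM in the control and 89.8, 96.1 and 101 CPM with ICF. The groups did not overlap, with ICF replicate 3 closest to the control. The means were 109 ± 2.79 and 95.6 ± 5.66 CPM (SD, n = 3; log2 fold change -0.19, SE 0.054), which did not pass in edgeR (adjusted p = 0.107) and passed with the block (adjusted p = 0.00762). Of its exon bases, 19.1% lie opposite E230016M11Rik on the other strand. The counting strand setting is not given in the sources used here, so reads of that antisense gene may be in these counts.

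Gadd45b (ENSMUSG00000015312, chr10:80930073-80932204, plus strand), a member known to respond to cytokines such as TGF-β, had 16.2, 15.6 and 14.1 CPM in the control and 11.1, 10.4 and 12.4 CPM with ICF. All 3 ICF libraries were below all 3 control libraries, and replicate 3 lay nearest the other group on both sides. The mean fell from 15.3 ± 1.08 to 11.3 ± 1.02 CPM (SD, n = 3; log2 fold change -0.44, SE 0.095, edgeR adjusted p = 0.0412). This call held in 2 of the 6 fits with 1 library left out. It was lost without control replicate 1 (edgeR adjusted p = 0.173), control replicate 2 (0.169), ICF replicate 1 (0.138) or ICF replicate 2 (0.126), and without ICF replicate 3 it was 0.0215.

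Gadd45g (ENSMUSG00000021453, chr13:51846678-51848468, plus strand), a member with roles in differentiation, had 5.23, 6.58 and 6.64 CPM in the control and 6.48, 7.32 and 10.4 CPM with ICF. The groups overlapped and ICF replicate 3 was the highest library. The means were 6.15 ± 0.80 and 8.05 ± 2.04 CPM (SD, n = 3; log2 fold change 0.38, SE 0.23, edgeR adjusted p = 0.250). With the block edgeR gave an adjusted p of 0.0206, whereas without ICF replicate 3 the log2 fold change was 0.17 (adjusted p = 0.506).

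Of the 3 Gadd45 genes, Gadd45b was the 1 called. The log2 ratio of Gadd45b to Gadd45g differed by -0.80 (SE 0.22) between ICF and control, that of Gadd45a to Gadd45g by -0.55 (SE 0.20) and that of Gadd45a to Gadd45b by 0.25 (SE 0.074). Each ratio was apart between the groups in all 6 libraries, and each exact two-sided permutation p was 0.1, the smallest possible, so no ratio can pass the threshold. Per kilobase of exon, Gadd45a held 80.6% ± 0.40 of the family's level in the control and 79.6% ± 1.84 with ICF, Gadd45b 12.6% ± 0.64 and 10.4% ± 0.65, and Gadd45g 6.86% ± 0.96 and 9.98% ± 1.72 (SD, n = 3).

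**Figure D3:**
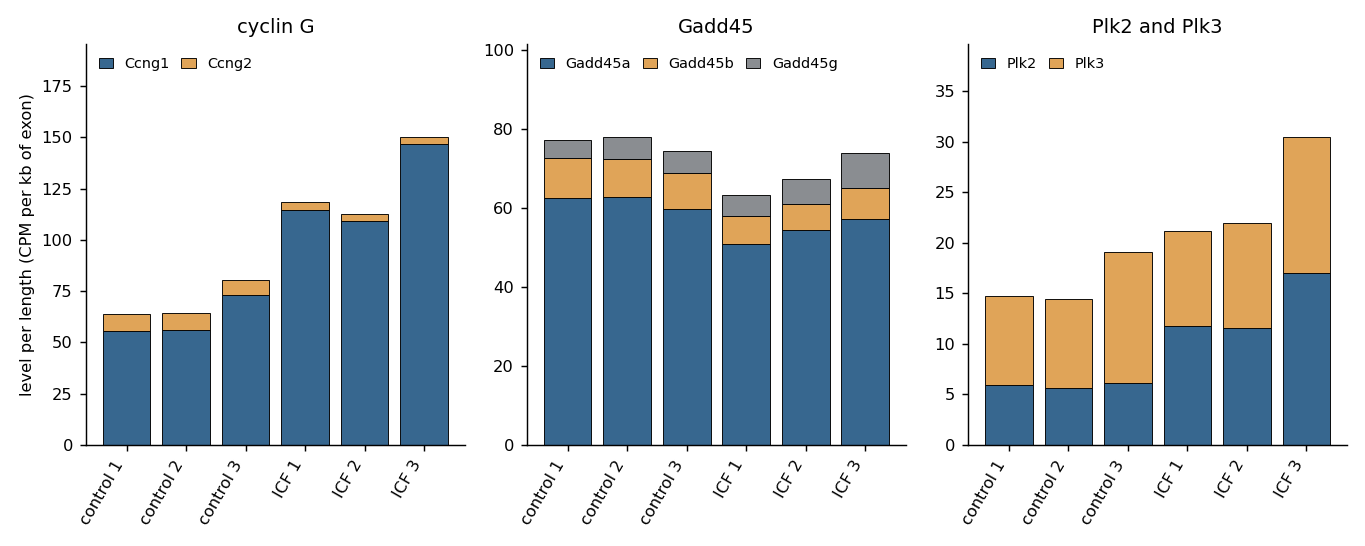
Level per length (CPM per kilobase of exon, bars from 0) of the cyclin G, Gadd45, and Plk2 and Plk3 genes in each library, stacked by gene. Cyclin G is mostly Ccng1 and grows with ICF while the Ccng2 part shrinks, Gadd45 is mostly Gadd45a in all libraries, and Plk2 goes from 37.3% to 54.7% of its bar on average.

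Rprm (ENSMUSG00000075334, chr2:54084093-54085552, minus strand), an intronless gene whose product arrests cells in G2, was the least abundant of the 10 per length. It had 3.05, 2.71 and 3.30 CPM in the control and 3.83, 4.78 and 5.11 CPM with ICF, from 85 to 158 counts per library. The groups did not overlap. The means were 3.02 ± 0.30 and 4.57 ± 0.66 CPM (SD, n = 3; log2 fold change 0.60, SE 0.15), with an edgeR adjusted p of 0.0633, 0.00434 with the block, and 0.0454 in DESeq2.

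Sfn (ENSMUSG00000047281, chr4:133600556-133602168, minus strand), also intronless, encodes stratifin, an epithelial protein of its family that keeps Cdk1 in the cytoplasm. It had 69.0, 65.7 and 49.8 CPM in the control and 54.3, 57.9 and 47.9 CPM with ICF. Replicate 3 was the lowest library of each group and the groups overlapped. The means were 61.5 ± 10.3 and 53.4 ± 5.06 CPM (SD, n = 3; log2 fold change -0.20, SE 0.17, edgeR adjusted p = 0.344), and with the block the adjusted p was 0.0132. In its transcript, 7.41% of 75-base stretches also occur in Gm7850 or Gm5279, so reads there may have been left out or assigned elsewhere.

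Of the genes that only the block called in edgeR, Gadd45a also passed in DESeq2 with the block (adjusted p = 0.0203). Sfn (0.0546), Rprm (0.0829) and Gadd45g (0.174) did not. All 10 genes had 1 direction in all 3 same-numbered pairs, including Plk3 (0.089, 0.24 and 0.070), which was not called with or without the block. The share of all genes with 1 direction was not computed, so this count is only a description. Replicate 3 lay away from the mean of replicates 1 and 2 by similar log2 amounts in both groups for Ccng1 (0.38 in the control and 0.39 with ICF) and Plk3 (0.56 and 0.46), and mainly with ICF for Plk2 (0.092 and 0.54) and Gadd45g (0.18 and 0.59). The median absolute offset over all genes was 0.17 and 0.20.

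**Figure D4:**
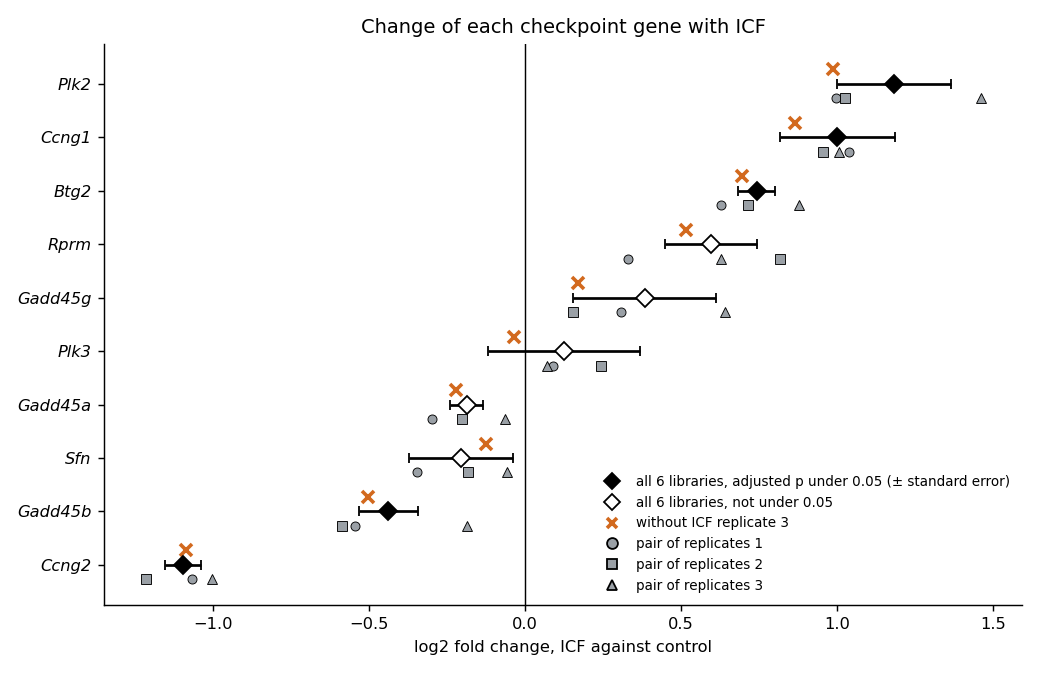
Log2 fold change of each checkpoint gene, ICF against control. Diamonds are the value from all 6 libraries with its standard error and are filled where the edgeR adjusted p is under 0.05, grey symbols below them are the 3 same-numbered pairs, and crosses above them leave out ICF replicate 3. Plk2, Ccng1 and Btg2, and the uncalled Rprm and Gadd45g, lie to the right under each view. Ccng2 and Gadd45b, and the uncalled Gadd45a and Sfn, lie to the left, and Plk3 crosses 0.

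Ordered by level per kilobase of exon, Gadd45a (61.7 CPM per kilobase) and Ccng1 (61.6) led in the control with overlapping ranges, followed by Sfn (38.1), Btg2 (17.6), Plk3 (10.1) and Gadd45b (9.64), of which Plk3 and Gadd45b overlapped. Ccng2 (7.87), Plk2 (5.91), Gadd45g (5.25) and Rprm (2.07) came last and were apart from each other. With ICF, Ccng1 (123 CPM per kilobase) stood alone at the top, then Gadd45a (54.2), Sfn (33.1) and Btg2 (29.5), the ranges of Sfn and Btg2 overlapping. Plk2 (13.4) and Plk3 (11.1) overlapped, as did Gadd45b (7.12) and Gadd45g (6.86), and Ccng2 (3.68) and Rprm (3.13) came last and apart. Part of this order depended on the length used. Per longest transcript, Gadd45a led in the control at 89.0 CPM per kilobase, apart from Ccng1 at 61.6, and Gadd45b (11.9), Plk3 (10.2), Plk2 (9.48) and Ccng2 (9.46) each overlapped the next. With ICF, Ccng1 also led by transcript length, Plk2 (21.5) was then apart from Plk3 (11.2), and Plk3 overlapped Gadd45b (8.81).

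The genes most like Ccng1 and Ccng2 in their pattern over the 6 libraries were taken from the 11924 genes that averaged 100 counts or more, by Pearson's correlation of log2 CPM, given as a description because the points share the group difference and the library offsets. For Ccng1 these were mt-Cytb, Ppid, Zfp345, Jag1 and Arhgap31 (r = 0.996 to 0.998), and Plk2 came at place 130 with r = 0.98. For Ccng2 they were Tmem45a, Radil, Pfkp, Vldlr and H1f0 (r = 0.996 to 0.999). Ccng1 with Ccng2 had r = -0.95.

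To place the cyclin G contrast, lists of other known targets were read beside it as a description, since they too were chosen with earlier results of these data known. Of 28 other p53 targets, 18 were called higher and 0 lower (edgeR; 20 and 0 in DESeq2, and 21 and 1 at an unadjusted p under 0.05), and their median log2 change was 0.47, with 23 of the 28 above 0. The largest rises were those of Trp73, a p53 relative (log2 fold change 1.66, SE 0.28, edgeR adjusted p = 0.00415), and Zfp365, a replication stress gene (1.55, SE 0.10, 0.000231). Cdkn1a, the p53-induced Cdk inhibitor, rose from 40.9 ± 3.75 to 67.4 ± 17.2 CPM (SD, n = 3; log2 fold change 0.72, edgeR adjusted p = 0.0308). The count called higher was 11 without ICF replicate 1, 9 without control replicate 1, 6 without control replicate 2 and 19 without ICF replicate 3, and the block gave 21 higher and 2 lower. For this and the other lists, counts with the block stand beside 29.9% of all genes called with it in either direction. Ccng1, Btg2 and Plk2, at 1.00, 0.74 and 1.18, lay above the median of that list, as did the uncalled Rprm at 0.60, and Plk3, Gadd45a and Sfn, at 0.13, -0.19 and -0.20 and also uncalled, lay below it.

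Of 20 other hypoxia targets, 0 were called higher and 18 lower (edgeR; 0 and 19 in DESeq2, and 0 and 19 at an unadjusted p under 0.05), and their median log2 change was -1.35. The largest falls were those of Adm, the vasodilator adrenomedullin (log2 fold change -4.08, SE 0.38, edgeR adjusted p = 0.000542), and Ankrd37 (-2.98, SE 0.28, 0.000346). Bnip3, a mitophagy gene, fell from 229 ± 40.9 to 40.1 ± 3.88 CPM (SD, n = 3; log2 fold change -2.52, edgeR adjusted p = 0.000129). The count called lower was 14 to 19 with 1 library left out and 19 with the block. The fall of Ccng2, at -1.10, was smaller than the median of that list.

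Of 20 other FoxO targets, 17 were tested, 1 was called higher (Sesn3, an antioxidant sestrin, log2 fold change 0.32, SE 0.043, edgeR adjusted p = 0.0195) and 1 lower (Pdk4, a brake on pyruvate use, -0.95, SE 0.16, 0.00909). The median was -0.097. Igfbp1, Pck1 and G6pc, which had at most 14 counts in any library, were not tested. Sesn3 and Pdk4 went in opposite directions, and the block called 3 higher and 6 lower, against 29.9% of all genes called with the block. The count called higher was 0 without ICF replicate 1, ICF replicate 2, control replicate 1 or control replicate 2, and the count called lower was 0 without control replicate 1 or control replicate 2 and 3 without control replicate 3.

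Among 13 regulators of the checkpoint genes, 12 were tested. Trp53 itself had 437 ± 21.4 CPM in the control and 448 ± 30.0 with ICF (SD, n = 3; log2 fold change 0.034, SE 0.070, edgeR adjusted p = 0.800). Foxo1 (log2 fold change -0.019, SE 0.046), Foxo3 (0.079, SE 0.061) and Foxo4 (0.019, SE 0.16) also did not pass. Hif1a had 139 ± 19.0 CPM in the control and 183 ± 23.8 with ICF (log2 fold change 0.39, SE 0.15, edgeR adjusted p = 0.0740, and 1.7e-07 with the block). Trp73 was called higher, as above, and Atr, a kinase that signals replication stress, lower (log2 fold change -0.41, SE 0.11, edgeR adjusted p = 0.0376). The call of Atr alone made up the lower count, which was 0 without ICF replicate 1, ICF replicate 2 or any control replicate, and the higher count was 3 without control replicate 3. Trp63, with at most 11 counts, was not tested.

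Each partner list had at most 1 gene called, too few to compare its share with those over all genes (3.47% higher and 4.38% lower). Of 12 cyclin G partners, including 8 PP2A subunits, 1 was called, Mdm2, which rose from 124 ± 19.2 to 212 ± 54.1 CPM (SD, n = 3; log2 fold change 0.78, SE 0.24, edgeR adjusted p = 0.0297). That count was 0 without ICF replicate 1, control replicate 1 or control replicate 2, and 2 without ICF replicate 3, and the block called 2 higher and 2 lower. Of 10 Gadd45 partners, Cdkn1a was the 1 called, and the count was 0 without control replicate 1 or control replicate 2, and the block called 1 higher and 2 lower. Mdm2 and Cdkn1a are also in the list of p53 targets, so these calls were already counted there. Of 13 genes of the G2/M kinase and its switches, 1 was called, Ccnb2, a B-type cyclin, which fell from 209 ± 22.3 to 148 ± 11.0 CPM (SD, n = 3; log2 fold change -0.49, SE 0.11, edgeR adjusted p = 0.0150). The G2/M list had a median of -0.14, with 11 of 13 below 0. The block called 8 of them lower and 1 higher, against 29.9% of all genes called with the block. Its count called lower was 0 without ICF replicate 1, control replicate 1 or control replicate 2, and 4 without control replicate 3.

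Of 16 relatives of the checkpoint genes (other polo-like kinases, Btg and Tob genes, Ccni, Rprml and the genes of the protein family of Sfn), 14 were tested and 1 was called, Ccni, cyclin I, which fell from 212 ± 19.1 to 166 ± 6.44 CPM (SD, n = 3; log2 fold change -0.35, SE 0.084, edgeR adjusted p = 0.0263). The count was 0 without ICF replicate 1, ICF replicate 2, control replicate 1 or control replicate 2, and 2 without control replicate 3. Btg4 and Rprml, with at most 2 counts, were not tested. Since several of the checkpoint genes are also quick stress-response genes, immediate early genes were read too. Of 15 such genes 14 were tested and 3 were called, all lower: Ier3 (log2 fold change -1.75, SE 0.21, edgeR adjusted p = 0.000812), Maff (-1.17, SE 0.24, 0.00691) and Dusp1 (-0.70, SE 0.087, 0.00333). The list as a whole was centred near 0, with a median of 0.022 and 8 genes above 0 and 6 below. The block called 1 of them higher and 4 lower, against 29.9% of all genes called with it.

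**Figure D5:**
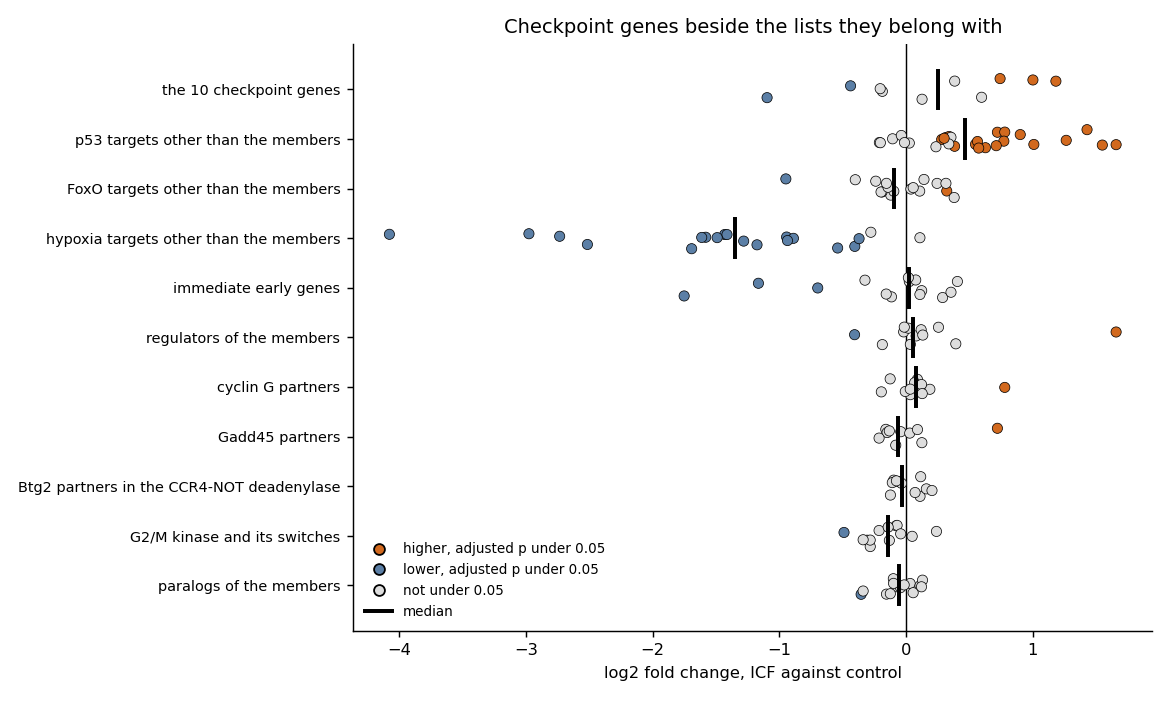
Log2 fold changes, ICF against control, of the 10 checkpoint genes and of the genes of each list (rows), with the median as a black line. Orange and blue points are called higher and lower by edgeR and grey points are not called. The p53 targets have 18 of 28 called higher, the hypoxia targets 18 of 20 called lower, and the partner and paralog lists have 0 or 1 called.

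Markers of cell types were read in the same libraries, and their part in the results was not tested. Of 8 pluripotency markers, 1 was called, Tdgf1, lower at a log2 fold change of -0.81. The median of these markers was -0.13, with 7 of the 8 below 0. DESeq2 called 2 of them lower and edgeR with the block 3, against 29.9% of all genes called with the block. Of 10 fibroblast and feeder markers 9 were tested and 2 were called higher, Col1a1 (0.75) and Col3a1 (0.73), with the summed level at 230 to 262 CPM in the control and 264 to 287 CPM with ICF. That count was 1 without ICF replicate 3, and Lum, a fibroblast proteoglycan, had at most 4 counts. Of the neural markers Elavl3 was called lower (-1.32, summed level 150 to 170 CPM in the control and 138 to 148 with ICF), of the endoderm markers Sox17 (-0.34, 359 to 376 and 353 to 394 CPM) and of the epithelial markers Epcam (-0.32, 816 to 839 and 744 to 791 CPM). Without ICF replicate 3 neither Sox17 (edgeR adjusted p = 0.0705) nor Epcam (0.0625) was called, and 5 of the 6 endoderm markers had a log2 fold change above 0, with a median of 0.14. Krt5, Krt14 and Trp63, which define stratified epithelium, where Sfn is known to be abundant, had at most 2, 13 and 11 counts. Of 8 haematopoietic and endothelial markers 6 were tested and 0 were called by edgeR, 1 by DESeq2 and 1 at an unadjusted p under 0.05, with Tal1 the one of largest difference (0.75, edgeR adjusted p = 0.330, a mean of 14.2 counts) and a summed level of 65.8 to 80.3 and 69.0 to 102 CPM. Cdh5, an endothelial cadherin named after its values were seen, was nearest to a call, with 19.7 ± 1.56 CPM in the control and 25.5 ± 2.29 CPM with ICF (SD, n = 3; edgeR adjusted p = 0.0522, and 0.000286 with the block). Ptprc and Hba-a1 had at most 8 and 1 counts.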

How the data were processed

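RNA sequencing measured mRNA in 3 ICF and 3 control samples. From strand-specific single-end libraries of 75 cycles, the authors filtered reads (FastQC, Trimmomatic), aligned them (HISAT2) and assigned them to genes (HTSeq), and the deposited values are raw counts. The submitters' processing notes list these tools, bcl2fastq 2.19 and DESeq2, with the builds GRCm38 and hg38 and no roles, so the annotation counted against is not given in the sources used here. The labels name an RNeasy kit and the methods Ribospin II. Rows naming no gene (38.1% to 40.3% of all counts) were left out.

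Symbols, coordinates and exon lengths came from GENCODE M21 on GRCm38, which held 50462 of the 50686 identifiers, and promoters from RefSeq. Counts were tested with edgeR 4.0.16 in R 4.3.3 (TMM, filterByExpr by group, quasi-likelihood test, Benjamini-Hochberg adjustment, threshold 0.05). The procedure was tested on simulated data with the same dispersion for every gene. The simulation had no replicate offset and no library with coarse counts, so it does not cover those features of these data. Levels are TMM-normalized CPM, standard errors come from the spread of log2 CPM within groups, and ratios used counts with 1 added. Replicate error and, for low genes such as Rprm, counting error limit the precision.

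The genes and lists were chosen with earlier results of these data known. Named were the 10 genes, up to 4 called genes of each list (those that rose or fell most, or the one with the largest difference where none was called), Trp53, Foxo1, Foxo3, Foxo4, Hif1a, Cdkn1a and Bnip3, and the 5 genes most like Ccng1 and Ccng2. Dusp1, Cdh5 and markers with few counts were named after their values were seen.

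The replicate numbers are the donor numbers of the labels. Deviations from the group means correlated at 0.15 to 0.376 between same-numbered samples and -0.343 to 0.263 between the others. These values set only replicate 3 apart. Control 1 correlated more with ICF 2 (0.263) than with ICF 1 (0.15), and control 2 had 0.197 with ICF 2 and 0.174 with ICF 1. The samples were paired by the numbers in the labels, and the correlations cannot show the pairing within replicates 1 and 2. With the replicate block, 9 of the 10 genes were called. Alternatives were DESeq2 1.42.0, RLE size factors, a looser (at least 1 count in any sample) and a stricter (at least 10 counts in every sample) filter on low counts, the replicate block in both tools, each library left out, replicate 3 of both groups left out, the counts of ICF replicate 3 divided by 4 and, added after the data were seen, the longest transcript as gene length.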

Additional observations from a re-analysis of the deposited data

How the results depend on the processing

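Over 14 alternative settings, Ccng1, Btg2, Plk2 and Ccng2 kept their direction and stayed past the threshold. With the replicate block, 5 of the 10 genes were called higher and 4 lower, and with replicate 3 of both groups left out and the replicate block 4 were called lower. The count called lower was 1 to 2 with 1 library left out, and the count called higher stayed at 3. The log2 fold change of Plk3 was -0.034 without ICF replicate 3 and up to 0.33 without control replicate 3, and the cause was not tested. The replicate block changed no call of the 10 genes other than those of Gadd45a, Gadd45g, Rprm and Sfn, and the 5 ratios kept their direction in every alternative, although their exact tests cannot pass the threshold. Over all genes 1313 were called, against 5006 with the replicate block in edgeR, 3020 with it in DESeq2, 4521 with it and without replicate 3 of both groups, and 300 to 1652 with 1 library left out. Per longest transcript in place of exon length, added after the data were seen, the share of Plk2 among Plk2 and Plk3 in the control was 48.6% in place of 37.3%.

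With 3 samples a group, changes as small as those of Gadd45a and Sfn were past the threshold only where the spread between replicate numbers was modelled. In ICF replicate 3 counts mostly step by 4, which is coarse for Rprm and Gadd45g. Protein levels, cell cycle phases and the time course of these mRNAs were not analysed here. The paper measured cell cycle phases by flow cytometry and reports a larger S phase population after ICF.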
